A study of Homo sapiens with 8 samples.

Results

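The genes that carry out mitosis were examined in UWB1.289 ovarian cancer cells with and without BRCA1. The set held 54 genes given by symbol: cyclins and mitotic kinases, spindle checkpoint and kinetochore genes, the chromosomal passenger complex, kinesins, spindle assembly and cytokinesis factors, condensin subunits, anaphase regulators and 2 transcription factors. All 54 were found among the 25369 named genes of the count table, and all 54 were among the 17714 that passed the filter on low counts. UWB1.289, an established human ovarian carcinoma line with a truncating BRCA1 mutation, is called BRCA1-null, and the same line transduced with BRCA1 is called BRCA1+. Both were grown in the DMSO vehicle (control) or in 0.5 uM entinostat for 24 h, which gave 4 groups of 2 poly(A) RNA libraries: BRCA1+ control, BRCA1+ entinostat, BRCA1-null control and BRCA1-null entinostat. Entinostat is a benzamide inhibitor of class I histone deacetylases. Each genotype is a single line, so a difference between the lines cannot be told apart from other differences that arose between them. The labels do not say whether the 2 replicates of a group came from separate cultures, so p-values measure the spread between these libraries, which may be technical.

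Mitosis is driven by the cyclin-dependent kinase CDK1 with its A and B cyclins, and by the Polo and Aurora kinases. Condensin compacts the chromosomes, kinetochores attach them to spindle microtubules, and the spindle checkpoint holds back the anaphase-promoting complex until all chromosomes are attached. Most of these genes are transcribed late in the cell cycle: in resting and early cycling cells the MuvB complex represses them through a promoter element called the cell cycle genes homology region (CHR), and later MYBL2 and FOXM1 join that complex and activate them. Their messages are therefore abundant in dividing cultures and low in resting ones.

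Total counts ranged from 31900158 to 53549893 per library, and 3 counts, the limit that a count of 0 allows, equalled 0.0560 to 0.0940 CPM, counts per 1e6 counts of the library. BRCA1 was at 95.6 CPM (control) and 126 CPM (entinostat) in BRCA1+ cells and at 21.7 and 18.4 CPM in BRCA1-null cells (means, n = 2), in the order that the labels give. Of 9 markers of ovarian carcinoma epithelium, PAX8 was at 347 to 379 CPM in the 4 groups and the keratins were abundant, but WT1 was nearly absent, with 1 to 20 counts per library. The summed leukocyte markers (4 genes, 12.5 to 35.4 CPM per library), endothelial markers (3 genes, 8.76 to 90.2 CPM) and stromal markers (5 genes, 13.5 to 83.7 CPM) were lowest in BRCA1+ control and highest in BRCA1-null entinostat libraries. In BRCA1-null entinostat these sums came largely from CDH5 (73.4 CPM, mean), COL1A2 (30.2), CD68 (28.1), THY1 (20.9) and COL1A1, while of the defining markers CD3E had 0 to 4 and DCN 0 counts per library, and PTPRC had 93 to 214 counts. Their part in the results was not tested.

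The mitotic genes together held 0.753% to 0.869% of all counts in a library. In BRCA1+ cells the control libraries gave 0.816% and 0.819% and the entinostat libraries 0.791% and 0.753%, both below the controls. In BRCA1-null cells the control libraries gave 0.869% and 0.787% and the entinostat libraries 0.820% and 0.757%, which overlapped. In bulk RNA, fewer cells in mitosis and less of these messages per cell cannot be told apart. Replicates differed in a way that ran through the whole set: in BRCA1-null control 49 of the 54 genes were higher in replicate 1 than in replicate 2, with a median difference of 0.13 on the log2 CPM scale against -0.0031 over all tested genes. The corresponding numbers were 25 genes (-0.0094) in BRCA1+ control, 39 (0.067) in BRCA1+ entinostat and 42 (0.063) in BRCA1-null entinostat. The results below that rest on a single library are therefore also given without it.

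Levels per length (RPKM, CPM divided by the gene length in kilobases) placed all 54 genes above the median of all tested genes, which was 5.40 RPKM over the 8 libraries, against 35.2 RPKM for the median of the set. In BRCA1+ control, UBE2C, the ubiquitin-conjugating enzyme of the anaphase-promoting complex, had the highest level at 214 ± 12.4 RPKM (SD, n = 2). CDC20, the activator of the same complex, followed at 208 ± 6.41 RPKM, within the spread of UBE2C. PLK1, the Polo kinase of mitotic entry, reached 147 ± 1.23 RPKM, TPX2, which activates Aurora A on the spindle, 113 ± 0.737 RPKM, and SMC4, a core ATPase of condensin, 108 ± 1.43 RPKM. The lowest levels belonged to motor and kinetochore proteins: KIF18A with 6.75 ± 0.550 RPKM, KIF15 with 8.60 ± 1.03, KIF14 with 8.95 ± 0.363, CENPE with 8.98 ± 0.305 and CENPI with 9.30 ± 0.270, of which the last 4 lay within each other's spread.

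Subunits of the same complex did not have the same level per length in BRCA1+ control, by the deposited gene lengths. Whether those are the lengths of the transcripts expressed was not tested, and the SDs do not cover it. In the NDC80 complex, which grips the microtubule, NDC80 had 44.3 ± 2.42, SPC24 36.9 ± 3.40, NUF2 34.2 ± 0.133 and SPC25 25.9 ± 0.379 RPKM. In condensin SMC4 (108 ± 1.43 RPKM) exceeded its partner SMC2 (20.4 ± 0.108), and among the other subunits NCAPD2 was at 64.2 ± 2.99, NCAPG at 45.5 ± 1.42 and NCAPH at 14.5 ± 0.805 RPKM. In the passenger complex the kinase AURKB had 75.6 ± 5.93 RPKM, BIRC5 (survivin) 44.8 ± 0.624, CDCA8 (borealin) 39.1 ± 0.823 and the scaffold INCENP 22.0 ± 2.37. KIF23 and RACGAP1, which form centralspindlin, were at 28.4 ± 1.16 and 46.5 ± 3.18 RPKM. CDK1 (61.6 ± 0.548 RPKM) lay above CCNB2 (49.1 ± 1.77) and CCNA2 (35.2 ± 1.07), the cyclins that bind it.

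**Figure D1:**
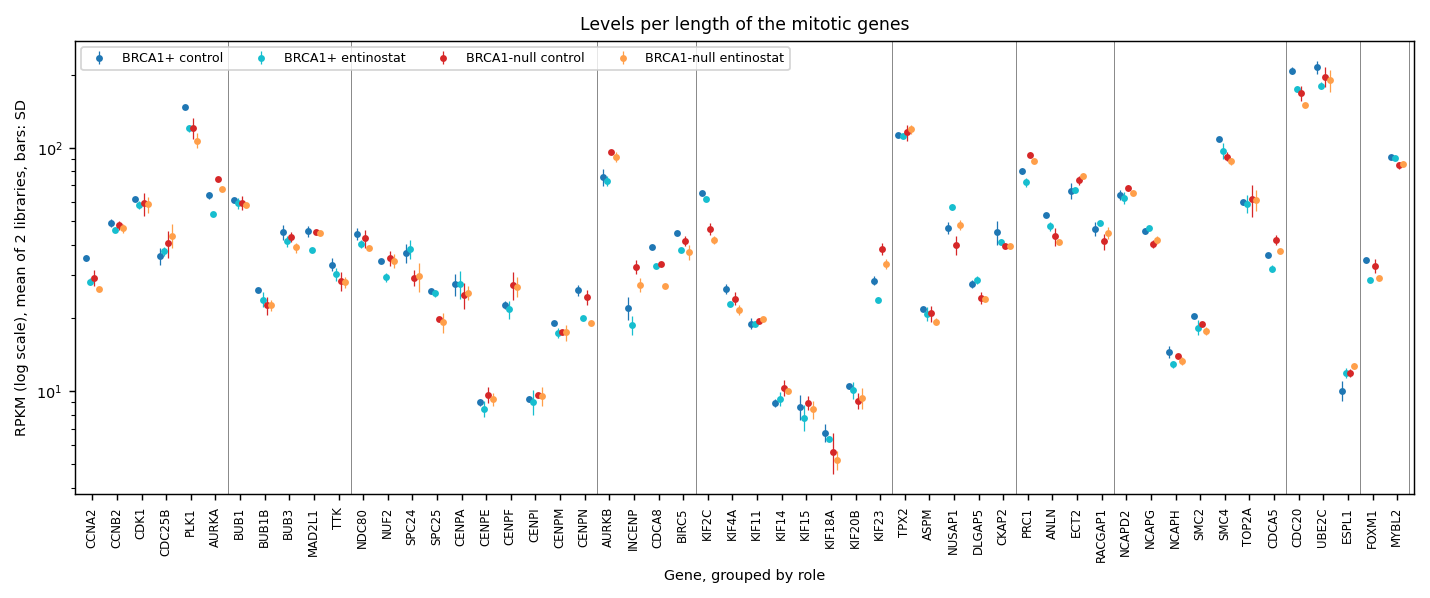
Level per length of each of the 54 mitotic genes on a log axis in RPKM, with a point for the mean of the 2 libraries of each group and a bar for the SD, genes grouped by role. Levels in BRCA1+ control run from 6.75 RPKM (KIF18A) to 214 RPKM (UBE2C), a spread far wider than any difference between the groups for one gene.

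The promoters of the set were read from RefSeq (GRCh38.p14), as windows from 250 bases before to 50 bases after the start of each gene. Only the first listed entry of each symbol was used, so any other starts of a gene were not searched. Windows were matched for 45 of the 54 genes; those of AURKA, BUB3, TTK, CENPM, BIRC5, RACGAP1, TPX2, FOXM1 and UBE2C were not matched. The CHR was searched only as TTTGAA and as TTTAAA, here called its second form, and not in other variants. The CCAAT box, which NF-Y binds and which often accompanies the CHR, was searched as CCAAT, and an E2F site as GGCGGGAA. All were searched on both strands. The CHR was found in 33 of the 45 windows (73.3%) and in 15.4% of all 27305 RefSeq windows of the same length. Its second form was found in 12 (26.7%, against 12.3% of all windows), the CCAAT box in 30 (66.7%, against 35.7%), the E2F letters in 4 (8.89%, against 3.18%), and the CHR together with a CCAAT box in 25 (55.6%, against 6.08%). A match is only a match of letters, and a window without one says nothing about the factor.

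The 120 bases before the start are shown for 8 genes on which the comparisons turn: CDCA8, CENPN and NUSAP1, which were called with entinostat in both lines, PLK1, CDC20 and KIF23, which were called lower with entinostat in BRCA1+ cells, and KIF2C and INCENP, which had the largest differences between the lines. All 8 lie on the forward strand, and the stretches are CDCA8 (chr1:37692396-37692515), CENPN (chr16:81007094-81007213), NUSAP1 (chr15:41332761-41332880), PLK1 (chr16:23678769-23678888), CDC20 (chr1:43358861-43358980), KIF23 (chr15:69414229-69414348), KIF2C (chr1:44739717-44739836) and INCENP (chr11:62123891-62124010) on GRCh38.p14. They are written 5′ to 3′, and capitals mark the CHR in either form and the CCAAT box on either strand.
CDCA8: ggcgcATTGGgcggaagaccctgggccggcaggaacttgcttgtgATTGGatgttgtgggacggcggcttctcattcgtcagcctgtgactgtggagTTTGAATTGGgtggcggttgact
CENPN: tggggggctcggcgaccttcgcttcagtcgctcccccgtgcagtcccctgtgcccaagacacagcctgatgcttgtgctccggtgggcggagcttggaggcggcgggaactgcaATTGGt
NUSAP1: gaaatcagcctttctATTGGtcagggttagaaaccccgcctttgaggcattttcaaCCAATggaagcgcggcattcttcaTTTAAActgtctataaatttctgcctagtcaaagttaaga
PLK1: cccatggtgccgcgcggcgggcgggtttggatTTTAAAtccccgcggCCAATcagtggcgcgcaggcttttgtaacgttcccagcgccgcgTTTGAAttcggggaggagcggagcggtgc
CDC20: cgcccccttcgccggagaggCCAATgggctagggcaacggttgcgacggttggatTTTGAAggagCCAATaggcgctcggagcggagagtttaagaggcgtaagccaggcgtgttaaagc
KIF23: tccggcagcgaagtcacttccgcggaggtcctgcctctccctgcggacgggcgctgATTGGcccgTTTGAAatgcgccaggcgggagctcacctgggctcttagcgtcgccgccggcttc
KIF2C: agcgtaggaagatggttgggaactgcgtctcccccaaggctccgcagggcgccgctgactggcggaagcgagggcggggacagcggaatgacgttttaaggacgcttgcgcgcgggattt
INCENP: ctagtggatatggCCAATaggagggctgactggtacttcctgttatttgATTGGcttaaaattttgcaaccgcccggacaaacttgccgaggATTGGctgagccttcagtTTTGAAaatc

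In PLK1, CDC20, KIF23, INCENP and CDCA8 a CHR lay between the start and 65 bases before it, with at least 1 CCAAT box before it in each. The first base of the CHR was at -29 in PLK1, -65 in CDC20, -55 in KIF23, -10 in INCENP and -23 in CDCA8, where it shares its last base with a CCAAT box read on the other strand. CENPN and NUSAP1 had the CHR after the start, at 4 and 14, outside the stretch shown, and NUSAP1 also had the second form at -40. KIF2C had neither TTTGAA nor CCAAT in its window and 1 second form across the start, at -3. Windows were matched for 7 of the genes called lower with entinostat in BRCA1+ cells, of which 6 held a CHR and 7 a CCAAT box, and among the other 38 matched genes 27 held a CHR and 23 a CCAAT box. Of these 7, CCNA2 and MAD2L1 are not shown above. CCNA2 held neither searched form of the CHR (TTTGAA or TTTAAA), and other variants of the element were not searched, so it is not shown to lack a CHR. MAD2L1 had the CHR after the start, at 25, and its CCAAT box at -229.

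**Figure D2:**
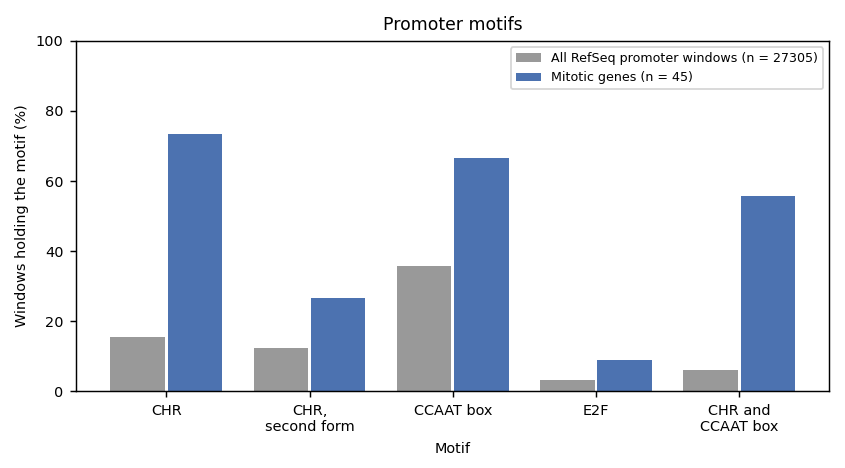
Share of promoter windows (percent, axis from 0) that hold each motif on either strand, for the 45 matched mitotic genes and for all 27305 RefSeq windows of the same length. The CHR is in 73.3% against 15.4%, and the CHR with a CCAAT box in 55.6% against 6.08%.

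Between the lines in DMSO, mitotic genes differed in both directions and by little. Of the 54 genes, 7 were called higher in BRCA1-null cells (13.0%) and 12 lower (22.2%), against 21.1% higher and 21.0% lower of all tested genes (edgeR's quasi-likelihood test, Benjamini-Hochberg adjusted p under 0.05). The higher share was thus below the background and the lower share near it. With the replicate number as a block, 10 were called higher (18.5%) and 18 lower (33.3%), against 25.0% and 25.5% of all tested genes, so that the lower share then exceeded the background. The median log2 fold change was -0.071, against 0.012 over all tested genes, and the differences reached at most 1.47-fold. A smaller change, within 1.2-fold, was found for 42 of the 54.

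The largest difference downward was that of KIF2C, the kinesin that depolymerises microtubules at kinetochores. KIF2C had 188 and 189 CPM in the BRCA1+ control libraries and 139 and 129 CPM in the BRCA1-null control libraries. The groups did not overlap, and the log2 fold change was -0.50 ± 0.0575 (SE, adjusted p 1.58e-04). The other large decreases were in the NDC80 complex. SPC25 had 34.4 and 35.2 CPM in BRCA1+ control and 26.4 and 26.9 CPM in BRCA1-null control libraries, with a log2 fold change of -0.39 ± 0.0811 (adjusted p 0.00459). SPC24, its partner at the inner end of the complex, had 25.7 and 22.6 CPM against 20.2 and 18.1 CPM (-0.34 ± 0.119, adjusted p 0.0477). SPC25 was called in each of the 16 alternatives, but SPC24 lost its call in 9 of them, with adjusted p-values up to 0.226. NDC80 and NUF2, the microtubule-binding pair of the same complex, had -0.066 ± 0.0742 (adjusted p 0.506) and 0.036 ± 0.0742 (adjusted p 0.729). The difference between the subunits was not tested.

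The largest difference upward was that of INCENP, the scaffold of the chromosomal passenger complex. INCENP had 98.3 and 84.4 CPM in BRCA1+ control and 141 and 128 CPM in BRCA1-null control libraries, and all BRCA1-null values lay above the BRCA1+ values. Its log2 fold change was 0.56 ± 0.0947 (adjusted p 0.00142). AURKB, the kinase that INCENP anchors, had 104 and 92.9 CPM against 125 and 125 CPM, with a log2 fold change of 0.35 ± 0.0701 (adjusted p 0.00379). The members of this complex did not move together: CDCA8 fell, from 95.9 and 98.7 CPM to 83.8 and 81.5 CPM (-0.24 ± 0.0550, adjusted p 0.00760), and BIRC5 had -0.11 ± 0.0645 (adjusted p 0.192). KIF23, the kinesin of the midzone, had 103 and 109 CPM in BRCA1+ control and 149 and 137 CPM in BRCA1-null control libraries. Its log2 fold change was 0.44 ± 0.0660 (adjusted p 7.52e-04), and that of its partner RACGAP1 was -0.17 ± 0.0751 (adjusted p 0.0944).

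Among the kinases, Aurora A and Polo went opposite ways. AURKA, which matures the centrosomes, had 159 and 166 CPM in BRCA1+ control and 192 and 187 CPM in BRCA1-null control libraries (log2 fold change 0.22 ± 0.0518, adjusted p 0.00738). PLK1 had 321 and 318 CPM against 279.6 and 244 CPM (-0.29 ± 0.0749, adjusted p 0.0130), and CCNA2, cyclin A2, had 96.3 and 101 CPM against 86.1 and 77.2 CPM (-0.27 ± 0.0683, adjusted p 0.0114). CDK1 and CCNB2 had -0.060 ± 0.0811 and -0.032 ± 0.0638 and were not called. Of all 17714 tested genes 8962 had an unadjusted p under 0.05 in this comparison by edgeR's quasi-likelihood test. Of the 5 spindle checkpoint genes 2 did, and 0 were called by that test. The lowest adjusted p there was that of TTK, the checkpoint kinase MPS1, with 95.6 and 104 CPM against 91.0 and 80.4 CPM and a log2 fold change of -0.22 ± 0.0830 (adjusted p 0.0553). With the replicate block 2 of the 5 were called lower, BUB1B (-0.21 ± 0.0520, adjusted p 0.00799) and TTK (-0.23 ± 0.0708, adjusted p 0.0230).

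In the later steps of division, PRC1, which bundles the midzone microtubules, rose by 0.22 ± 0.0529 on the log2 scale (adjusted p 0.00816), while ANLN (anillin), which links the contractile ring to the membrane, fell from 250.1 and 255 CPM to 219.6 and 194 CPM (-0.29 ± 0.0670, adjusted p 0.00761). CDC20 had 340.0 and 355 CPM in BRCA1+ control and 296 and 266 CPM in BRCA1-null control libraries, a log2 fold change of -0.31 ± 0.0606 (adjusted p 0.00328), and ESPL1, the protease separase, had 70.9 and 61.9 CPM against 80.8 and 76.6 CPM (0.25 ± 0.0774, adjusted p 0.0295). Of the condensin subunits SMC4 fell from 627 and 615 CPM to 542 and 511 CPM (-0.24 ± 0.0626, adjusted p 0.0138) and NCAPG fell by 0.18 ± 0.0563 (adjusted p 0.0325), while NCAPD2, NCAPH and SMC2 lay between -0.11 and 0.088 and were not called. CDCA5 (sororin), which protects cohesion between sister chromatids, rose by 0.21 ± 0.0596 (adjusted p 0.0211). The spindle factors NUSAP1 (-0.24 ± 0.0765, adjusted p 0.0296) and DLGAP5 (-0.19 ± 0.0647, adjusted p 0.0376) fell. The transcription factors MYBL2 (-0.11 ± 0.0505, adjusted p 0.110) and FOXM1 (-0.075 ± 0.0615, adjusted p 0.363) were not called.

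The balance of higher and lower genes depended on the scaling and on single libraries. With upper-quartile factors, or with a filter of at least 1 CPM in at least 4 libraries, the 54 genes gave 10 higher and 8 lower calls in place of 7 and 12. Without replicate 2 of BRCA1-null control, 8 were called higher and 3 lower, with a median of -0.022 and with NUSAP1 at -0.15. Without replicate 1 of BRCA1-null control, 5 were called higher and 13 lower, with a median of -0.11. Without replicate 2 of BRCA1+ control, 5 were called higher and 7 lower. ESPL1 ranged from 0.15 to 0.35 over the alternatives and lost its call without that library and without either BRCA1-null control library. AURKB, SPC25, KIF2C, KIF23, INCENP and CDC20 were called in the same direction in each of the 16 alternatives, and the other 13 called genes lost their call in at least 1.

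**Figure D3:**
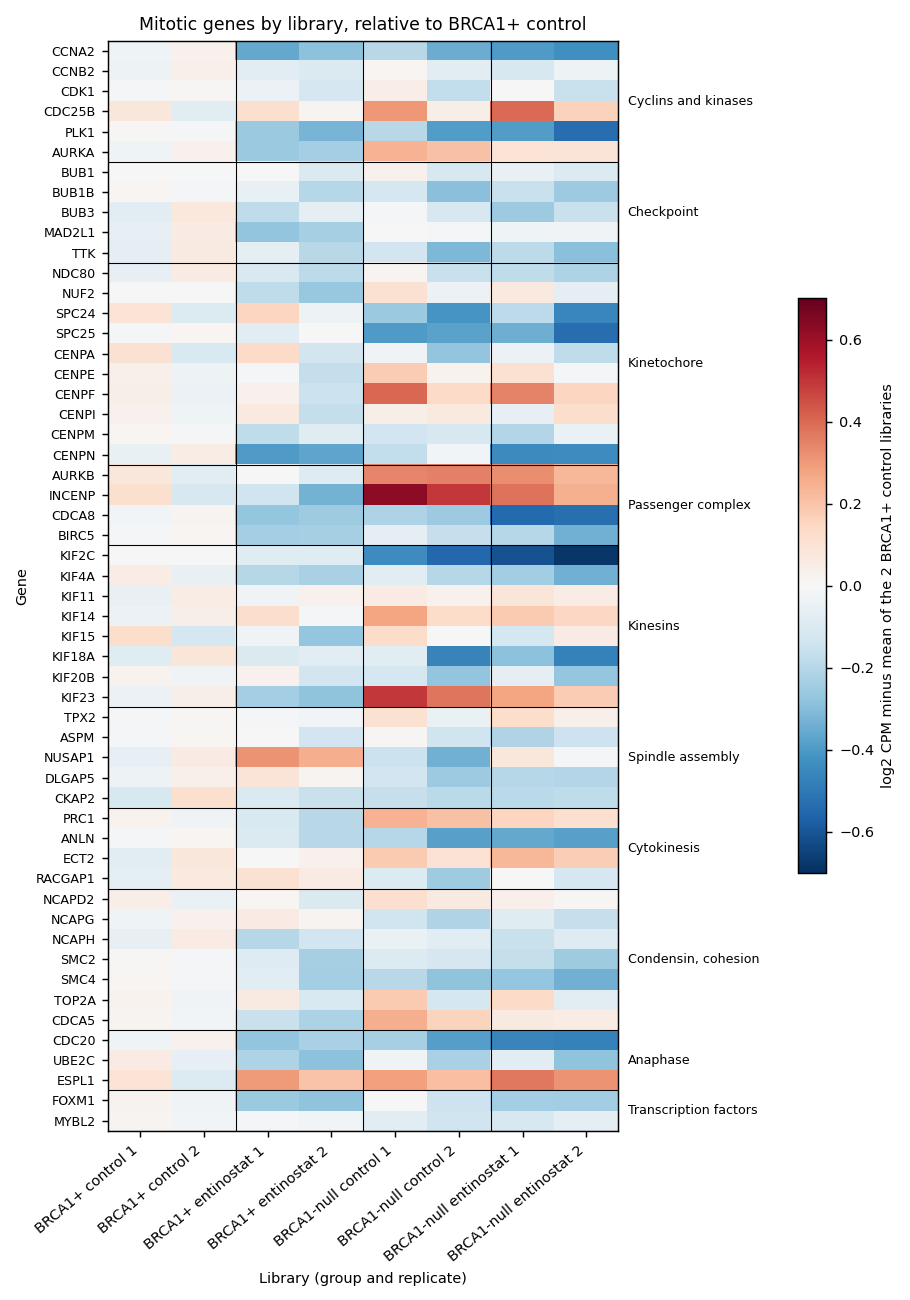
Heat map of the 54 mitotic genes (rows, grouped by role) in the 8 libraries (columns), as log2 CPM minus the mean of the 2 BRCA1+ control libraries, so that red is higher and blue lower. INCENP, KIF23 and AURKB are red in the BRCA1-null libraries and KIF2C, SPC25 and CDC20 blue, while in BRCA1-null control replicate 1 is redder or less blue than replicate 2 for 49 genes.

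In entinostat the same line comparison gave 10 genes higher in BRCA1-null cells (18.5%) and 9 lower (16.7%), against 20.5% and 18.9% of all tested genes, with a median of -0.029 against 0.019. With the replicate block 11 were called higher and 11 lower (20.4% each), against 24.5% and 22.9% of all tested genes. The largest differences again were at most 1.48-fold. KIF2C had 178 and 178 CPM in BRCA1+ entinostat and 123 and 117 CPM in BRCA1-null entinostat libraries, and its log2 fold change of -0.56 ± 0.0579 had the lowest adjusted p of the set (8.39e-05). SPC25 fell from 33.1 and 34.8 CPM to 27.5 and 24.0 CPM (-0.40 ± 0.0828, adjusted p 0.00451). SPC24 had 26.7 and 23.5 CPM against 21.2 and 17.5 CPM (-0.37 ± 0.121, adjusted p 0.0387). It lost its call in 3 of the 16 alternatives, without either BRCA1+ entinostat library and without BRCA1-null entinostat replicate 2 (-0.24), with adjusted p-values up to 0.213. INCENP rose from 82.6 and 72.4 CPM to 118 and 108 CPM (0.55 ± 0.0963, adjusted p 0.00170), KIF23 from 89.7 and 86.9 CPM to 128 and 119.7 CPM (0.49 ± 0.0670, adjusted p 4.33e-04) and AURKA from 136 and 138 CPM to 174 and 173 CPM (0.34 ± 0.0523, adjusted p 8.12e-04). For each of these 6 genes the 2 libraries of one line lay wholly on one side of the other line.

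PRC1 (0.28 ± 0.0532, adjusted p 0.00259) and CDCA5 (0.25 ± 0.0605, adjusted p 0.0106) were higher, and CDC20 (-0.22 ± 0.0609, adjusted p 0.0193) and DLGAP5 (-0.26 ± 0.0651, adjusted p 0.0118) were lower in BRCA1-null cells. MAD2L1, the checkpoint protein MAD2, was higher in entinostat, with 53.9 and 55.5 CPM in BRCA1+ and 63.7 and 64.0 CPM in BRCA1-null libraries (0.22 ± 0.0637, adjusted p 0.0211), whereas in DMSO its values were 62.6 and 67.7 CPM against 64.9 and 64.4 CPM (-0.012 ± 0.0624, adjusted p 0.892). MYBL2 had -0.074 ± 0.0506 (adjusted p 0.284). Over the 2 line comparisons, which share no library, 9 genes were called lower in both (SPC24, SPC25, KIF2C, CDCA8, ANLN, CDC20, NCAPG, NUSAP1 and DLGAP5), 6 higher in both (AURKA, AURKB, KIF23, INCENP, CDCA5 and PRC1) and 31 in neither. Joint calls were not counted over all tested genes, so these counts cannot be read as a trait of the set. In the single comparisons 21.0% of all tested genes were called lower in DMSO and 18.9% in entinostat, and 21.1% and 20.5% higher. CCNA2, PLK1 and SMC4 were called lower and ESPL1 higher in DMSO alone, and MAD2L1, NUF2, CENPF and ECT2 higher in entinostat alone. With the replicate block CENPF was also called in DMSO (adjusted p 0.00179) and PLK1 and SMC4 in entinostat (adjusted p 0.0228 and 0.0215). Across the 54 genes, which are not independent replicates and which share the same lines and scaling, the 2 sets of log2 fold changes correlated with a Pearson r of 0.941 and a Spearman rho of 0.936, against an r of 0.863 over all tested genes. The latter was not matched for level, and all 54 genes lie above the median level of the tested genes. Fewer of the 54 genes were called when any one of the 4 entinostat libraries was left out, and fewer of all tested genes as well. The median of the set became 0.0036 without replicate 1 of BRCA1+ entinostat. AURKA, SPC25, KIF2C, KIF23, INCENP, CDCA8 and PRC1 were called in each of the 16 alternatives.

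**Figure D4:**
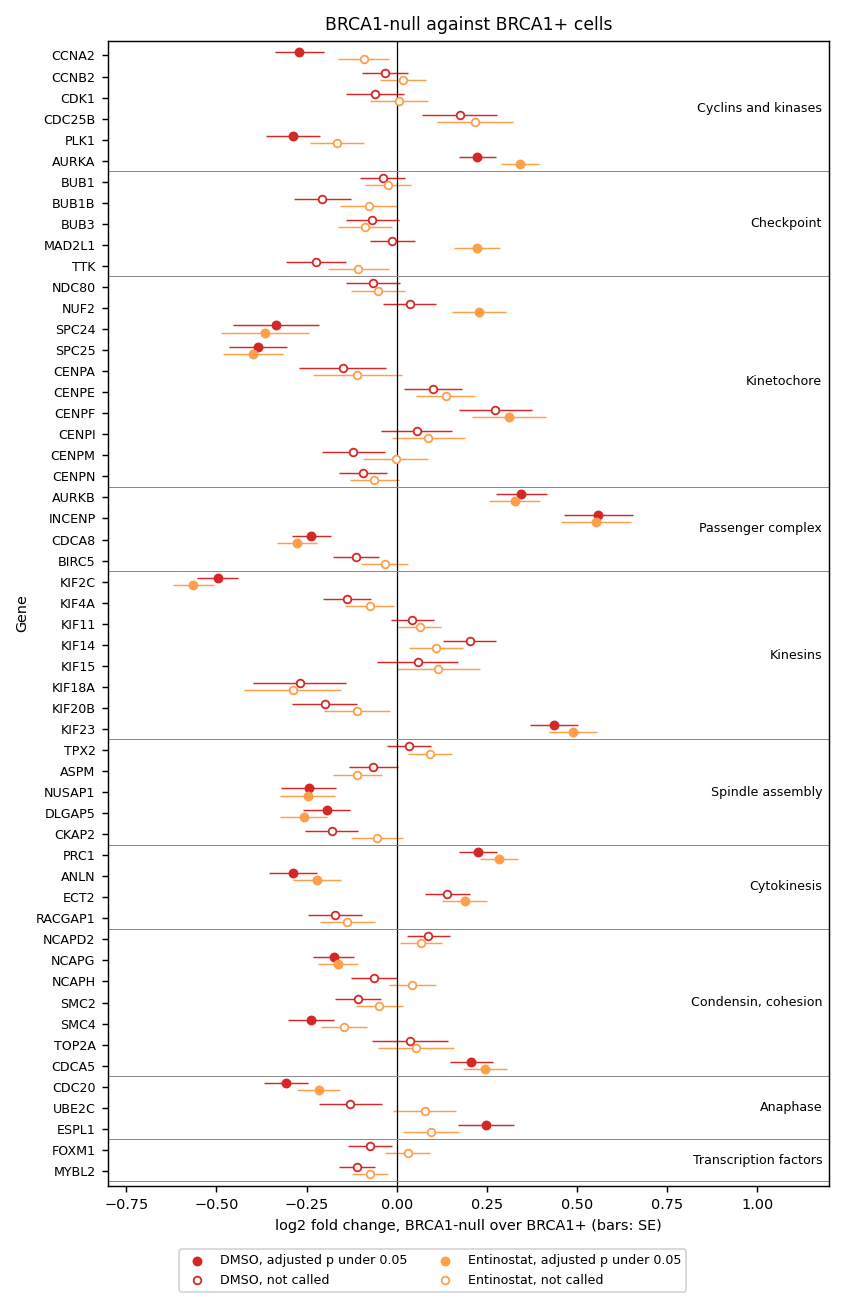
Log2 fold change of BRCA1-null over BRCA1+ cells for each of the 54 genes, in DMSO and in entinostat, with bars for the SE; filled points had an adjusted p under 0.05. The values run from -0.56 (KIF2C in entinostat) to 0.56 (INCENP in DMSO), with genes of one role on both sides of 0.

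Entinostat lowered a part of the set in BRCA1+ cells. Of the 54 genes, 10 were called lower (18.5%) and 1 higher (1.85%), against 6.0% lower and 8.15% higher of all tested genes. The median log2 fold change was -0.11 against 0.0004 over all tested genes, and no change exceeded 1.30-fold. Of the 54 values 44 were negative, against 8839 of all 17714 tested genes. With the replicate number as a block, 19 genes were called lower (35.2%) and 2 higher (3.70%), against 11.4% and 13.0% of all tested genes.

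The largest decrease was that of CENPN, which binds the centromeric nucleosome and brings the inner kinetochore to it. CENPN (chromosome 16, 81040103 to 81066709 on hg19) had 133 and 143 CPM in BRCA1+ control and 105 and 107 CPM in BRCA1+ entinostat libraries, without overlap, and its log2 fold change was -0.38 ± 0.0673 (adjusted p 0.00774). CCNA2 fell from 96.3 and 101 CPM to 76.8 and 80.5 CPM (-0.32 ± 0.0691, adjusted p 0.0168), and PLK1 from 321 and 318 CPM to 266 and 255 CPM (-0.29 ± 0.0752, adjusted p 0.0325). AURKA fell as well, from 159 and 166 CPM to 136 and 138 CPM (-0.25 ± 0.0524, adjusted p 0.0159). CDK1, with 203 and 206 CPM against 198 and 189 CPM, had -0.080 ± 0.0815 (adjusted p 0.579), and CCNB2 had -0.093 ± 0.0646 (adjusted p 0.392).

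The other genes called lower belonged to 5 roles. MAD2L1 of the checkpoint fell from 62.6 and 67.7 CPM to 53.9 and 55.5 CPM (-0.25 ± 0.0637, adjusted p 0.0304). In the passenger complex, CDCA8 fell from 95.9 and 98.7 CPM to 80.7 and 81.7 CPM (-0.26 ± 0.0556, adjusted p 0.0167) and BIRC5 from 119.7 and 122 CPM to 103 and 103 CPM (-0.23 ± 0.0652, adjusted p 0.0439), while INCENP had -0.24 ± 0.0969 with 98.3 and 84.4 CPM against 82.6 and 72.4 CPM (adjusted p 0.137). Of 8 kinesins, KIF23 was called (103 and 109 CPM against 89.7 and 86.9 CPM; -0.26 ± 0.0672, adjusted p 0.0335). CDC20 fell from 340.0 and 355 CPM to 287 and 297 CPM (-0.25 ± 0.0607, adjusted p 0.0267), and FOXM1, the transcription factor of the late cell cycle, fell from 128 and 124 CPM to 105 and 103 CPM (-0.27 ± 0.0622, adjusted p 0.0224), while MYBL2 had -0.014 ± 0.0506 (adjusted p 0.893). For each of these called genes both entinostat libraries lay below both control libraries. Of the 7 genes of condensin, topoisomerase and cohesion 0 were called by edgeR's quasi-likelihood test. An unadjusted p under 0.05 was found for 4 of them, and for 5129 of all 17714 tested genes. The lowest adjusted p of the 7 was that of CDCA5 (-0.19 ± 0.0607, adjusted p 0.0725). Of the 4 cytokinesis genes 0 were called (1 at an unadjusted p under 0.05), the lowest adjusted p being that of PRC1 (-0.15 ± 0.0533, adjusted p 0.0933). The replicate block added 9 genes called lower. Of the genes of condensin and cohesion 4 were among them, CDCA5 (adjusted p 0.0207), SMC4 (0.0273), SMC2 (0.0436) and NCAPH (0.0454), and the others were UBE2C (0.00578), INCENP (0.00811), KIF4A (0.0110), NUF2 (0.0168) and PRC1 (0.0249).

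NUSAP1 was the single gene called higher. NUSAP1, which binds and bundles spindle microtubules near chromatin, had 111 and 120.1 CPM in BRCA1+ control and 143 and 137 CPM in BRCA1+ entinostat libraries, a log2 fold change of 0.28 ± 0.0763 (adjusted p 0.0395). ESPL1 moved by a similar amount, from 70.9 and 61.9 CPM to 81.3 and 76.0 CPM (0.24 ± 0.0782), without a call (adjusted p 0.0692; 0.00987 with the replicate block). Of the other spindle assembly genes, TPX2 (-0.013), ASPM (-0.069), DLGAP5 (0.055) and CKAP2 (-0.13) were not called, with or without the block.

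These calls depended on having both libraries of each group. With edgeR's quasi-likelihood test, some were kept without replicate 1 of BRCA1+ control. All were lost without replicate 2 of BRCA1+ control, replicate 1 of BRCA1+ entinostat or replicate 2 of BRCA1+ entinostat. The calls over all tested genes fell at the same time. The median of the set remained negative, from -0.14 to -0.080 over these fits. With upper-quartile factors 5 genes were called lower and 2 higher, and the median was -0.059.

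In BRCA1-null cells, entinostat lowered 2 of the 54 genes (3.70%) and raised 1 (1.85%), against 3.19% and 7.57% of all tested genes. The median was -0.048 against 0.019, with 41 of the 54 values negative (8241 of all 17714 tested genes) and no change above 1.28-fold. CENPN fell from 122 and 136 CPM to 101 and 101 CPM (-0.35 ± 0.0670, adjusted p 0.0143), and CDCA8 from 83.8 and 81.5 CPM to 66.7 and 67.5 CPM (-0.30 ± 0.0557, adjusted p 0.0128). NUSAP1 rose from 104 and 91.3 CPM to 122 and 114 CPM (0.28 ± 0.0764, adjusted p 0.0496). These 3 genes were called in both lines, and in each the libraries of the 2 treatments did not overlap. Calls shared by both lines were not counted over all tested genes.

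The other values in BRCA1-null cells were smaller. KIF23 had 149 and 137 CPM in control and 128 and 119.7 CPM in entinostat libraries (-0.21 ± 0.0656, adjusted p 0.0758), CDC20 -0.16 ± 0.0607 (adjusted p 0.123), FOXM1 -0.17 ± 0.0617 (adjusted p 0.118) and AURKA -0.13 ± 0.0516 (adjusted p 0.143). The lowest adjusted p among checkpoint genes was that of BUB3, which targets BUB kinases to kinetochores (-0.14 ± 0.0743, adjusted p 0.262), and in the remaining roles CDCA5 had -0.15 ± 0.0595 (adjusted p 0.145) and PRC1 -0.092 ± 0.0528 (adjusted p 0.299). With the replicate block 7 genes were called lower (13.0%) and 1 higher (1.85%), against 7.58% and 13.0% of all tested genes. The added calls were PLK1 (-0.17 ± 0.0513, adjusted p 0.0431), KIF4A, KIF23 (adjusted p 0.0294), INCENP (-0.25 ± 0.0474, adjusted p 0.00720) and FOXM1 (adjusted p 0.0437). Without replicate 1 of BRCA1-null control CENPN and CDCA8 kept their calls. Without replicate 2 of BRCA1-null control, or replicate 1 or 2 of BRCA1-null entinostat, the calls of the set were lost. Calls over all tested genes fell in each of these fits too. The median of the set was -0.11 without replicate 2 of BRCA1-null control, -0.028 without its replicate 1, and -0.021 without replicate 2 of BRCA1-null entinostat. NUSAP1 lost its call in 12 of the 16 alternatives.

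**Figure D5:**
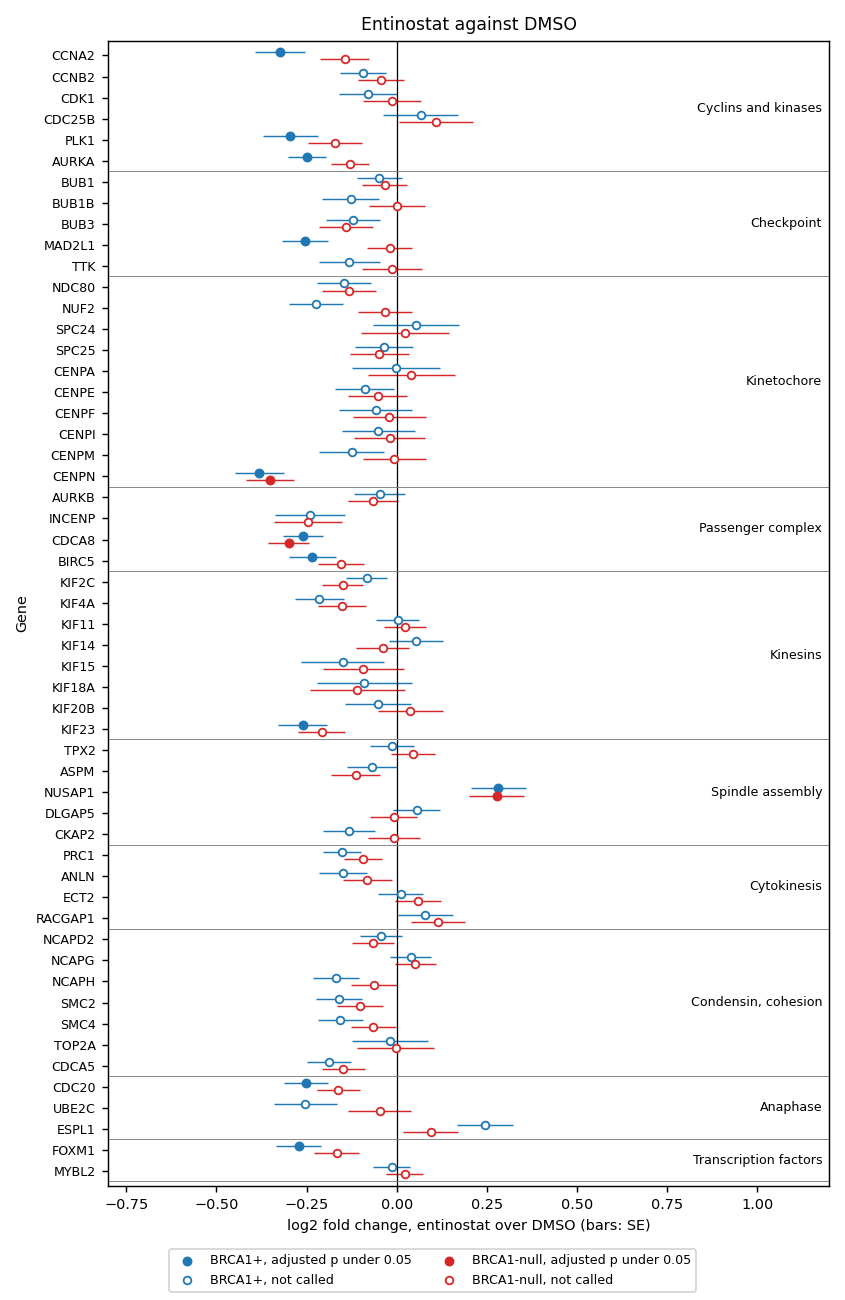
Log2 fold change of entinostat over DMSO for each of the 54 genes in either line, with bars for the SE; filled points had an adjusted p under 0.05. CENPN and CDCA8 are filled on the left and NUSAP1 on the right in both lines, and 39 genes lie left of 0 in both.

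Whether the lines responded differently was tested as the interaction, that is, the log2 change in the BRCA1-null line less the log2 change in the BRCA1+ line. It was called for 0 of the 54 genes and for 0% of all tested genes by edgeR's quasi-likelihood test, and 1 of the 54 had an unadjusted p under 0.05, against 4.67% of all tested genes. The DESeq2 Wald test called 11 genes in all and edgeR's likelihood ratio test 18, with 0 of the 54 among them in either. The 1 gene was MAD2L1, with an interaction of 0.23 ± 0.0892 on the log2 scale (unadjusted p 0.0270, adjusted p 0.967). In BRCA1+ cells MAD2L1 had 62.6 and 67.7 CPM without and 53.9 and 55.5 CPM with entinostat, and in BRCA1-null cells 64.9 and 64.4 CPM without and 63.7 and 64.0 CPM with it, so that the BRCA1+ entinostat libraries lay below the other 6. CCNA2 (0.18 ± 0.0975, adjusted p 0.967) and NUF2 (0.19 ± 0.106, adjusted p 0.967) followed. CCNA2, PLK1, AURKA, MAD2L1, KIF23, BIRC5, FOXM1 and CDC20 were called lower with entinostat in BRCA1+ cells alone, and for none of these 8 was the response shown to differ between the lines. Calls in BRCA1+ cells alone were not counted over all tested genes.

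The median interaction of the set was 0.042 against 0.027 over all tested genes. Of the 54 values 40 were positive, against 9949 of all 17714 tested genes. The median was -0.0065 without replicate 2 of BRCA1-null control and 0.083 without its replicate 1, and it was 0.0005 with upper-quartile factors. Across the 54 genes, which share the lines, the scaling and the time of treatment and are not independent replicates, the changes in the 2 lines, which share no library, correlated with a Pearson r of 0.832 and a Spearman rho of 0.793, against an r of 0.594 over all tested genes. The latter was not matched for level, and all 54 genes lie above the median level of the tested genes.

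Over the 4 comparisons of groups, 26 of the 54 genes were called in at least 1 and 28 in none without the replicate block. The same was not counted over all tested genes, so these counts cannot be read as a trait of the set. In a single comparison, between the lines in DMSO, 21.1% of all tested genes were called higher and 21.0% lower (25.0% and 25.5% with the block). With the block 10 of the 28 were called in at least 1 comparison. These were CDC25B (adjusted p 0.0200 in DMSO and 0.00768 in entinostat) and KIF14 (0.0256 in DMSO), higher in BRCA1-null cells, and BUB1B (0.00799), KIF20B (0.0129), TTK (0.0230), KIF4A (0.0335), CKAP2 (0.0446) and UBE2C (0.0464), lower in BRCA1-null cells in DMSO. KIF4A (adjusted p 0.0110 in BRCA1+ and 0.0489 in BRCA1-null cells) was also lower with entinostat, and UBE2C, NCAPH and SMC2 were lower with it in BRCA1+ cells. The other 18 were called in neither fit. Without the block the 28 had log2 fold changes from -0.29 (KIF18A, between the lines in entinostat) to 0.22 (CDC25B, the phosphatase of CDK1, in the same comparison). In 8 of them, CCNB2, CDK1, BUB1, CENPI, KIF11, TPX2, TOP2A and NCAPD2, all 4 values lay within 0.1 of 0. KIF11, the motor that pushes the spindle poles apart, ranged from 92.5 to 102 CPM over all 8 libraries and from 0.0025 to 0.064 in its fold changes. TOP2A, the topoisomerase that untangles sister chromatids, had fold changes from -0.019 to 0.053, but its libraries ranged from 315 to 390.3 CPM, and in each of the 4 groups replicate 1 was higher than replicate 2. CENPA, the histone variant that marks the centromere, ranged from 32.3 to 43.0 CPM with the same order of replicates in each group. BUB1B and BUB1, the checkpoint kinases, had values from -0.21 to 0.0012 and from -0.048 to -0.024. The motor proteins KIF4A (-0.21 to -0.075), KIF14 (-0.039 to 0.20), KIF15 (-0.15 to 0.12) and KIF20B (-0.20 to 0.038) and the centromere proteins CENPE (-0.089 to 0.14) and CENPM (-0.13 to -0.0023) were also among the 28. A gene that missed the threshold is not thereby shown to be unchanged.

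Other mitotic genes were examined in a list of 110, of which 107 were tested. In DMSO 14 were higher (13.1%) and 38 lower (35.5%) in BRCA1-null cells (median -0.11), against 21.1% and 21.0% of all tested genes. In entinostat 17 were higher (15.9%) and 30 lower (28.0%; median -0.079), against 20.5% and 18.9%. A part of the lower calls came from one chromosome. On chromosome 5, where none of the 54 genes lies, all 13 listed genes had negative values in both comparisons, 11 of them called in DMSO (median -0.70) and 10 in entinostat (median -0.57). The 94 tested genes on other chromosomes gave 14 higher and 27 lower (28.7%) in DMSO (median -0.083) and 17 higher and 20 lower (21.3%) in entinostat (median -0.050). The largest decreases in DMSO were those of CDC25C, the phosphatase that activates CDK1, which fell by 1.10 ± 0.108, and FAM64A, which fell by 1.10 ± 0.132. CDC25C is among the 13 genes on chromosome 5, and FAM64A is not. In entinostat CDC25C fell by 0.97 ± 0.112 and FAM64A fell by 1.03 ± 0.133. The largest increases were those of CENPP, a protein of the inner kinetochore (0.45 ± 0.101 in DMSO and 0.74 ± 0.110 in entinostat), PRR11 (0.44 ± 0.0741 in DMSO) and ANAPC5, a subunit of the anaphase-promoting complex (0.51 ± 0.0612 in entinostat).

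With entinostat 18 of these 107 genes fell (16.8%) and 0 rose in BRCA1+ cells by edgeR's quasi-likelihood test (median -0.13), against 6.0% and 8.15% of all tested genes. In either direction 43 of the 107 had an unadjusted p under 0.05 by that test, against 5129 of all 17714 tested genes. In the BRCA1-null line 9 fell (8.41%) and 1 rose (0.935%; median -0.071), against 3.19% and 7.57%. In BRCA1+ cells the largest decreases were those of STAG1, a cohesin subunit (-0.52 ± 0.0754, adjusted p 0.00369), and HMMR, a spindle protein encoded on chromosome 5 (-0.48 ± 0.133, adjusted p 0.0434). In BRCA1-null cells they were those of STAG1 (-0.39 ± 0.0737, adjusted p 0.0136) and ANAPC2, the cullin of the anaphase-promoting complex (-0.38 ± 0.0781, adjusted p 0.0181), and CEP55, which acts in the last step of cytokinesis, rose by 0.35 ± 0.0784 (adjusted p 0.0255). The interaction was called for 0 of the 107, with 1 at an unadjusted p under 0.05, against 4.67% of all tested genes.

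Counting may not have separated all genes of the set from their neighbours. By the listed positions 16 of the 54 overlap another gene, and whether the counting used strand was not stated. PRC1 shares 22256 bases with the antisense gene PRC1-AS1 (1846 mean counts against 11820 for PRC1), and without strand their reads cannot be told apart. FOXM1 shares 2115 bases with LOC100507424 (689 mean counts against 5024 for FOXM1) and 898 with RHNO1, both on the opposite strand, and CCNA2 and CENPN share shorter ends with EXOSC9 (578 bases) and CMC2 (400 bases). NUF2, KIF14 and ASPM lie within the listed spans of SRGAP2D and FAM72C, which had means of 642 and 242 counts. These spans cover at least 163291723 to 200589862 on chromosome 1. In the same way BUB1 (from 111395275) and NCAPH (from 97001479) on chromosome 2 both lie within the listed spans of MIR4435-1 and MIR4435-2. Spans of such width may not be those of single genes, so these overlaps may exist in the listing only. Of the called genes, 6 between the lines in DMSO, 4 between the lines in entinostat (NUF2 among them), 4 with entinostat in BRCA1+ and 1 in BRCA1-null cells overlap another gene by the listed positions. KIF4A has a nearly identical copy, KIF4B, which received 8 to 18 counts per library against 3275 to 5612 for KIF4A.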

How the data were processed

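Poly(A) RNA libraries were prepared by the authors, aligned with TopHat 2 to hg19 and counted per gene with NGSUtils. The authors deposited raw read counts, without normalization, in one table of 8 libraries in 4 groups of 2; groups and replicate numbers come from the sample titles. An entry without a name held 0 counts. How strand and reads with several positions were counted was not given in the sources used here. Counts were tested with edgeR 4.0.16 in R 4.3.3 (limma 3.58.1). Genes were kept by filterByExpr (17714), scaled by TMM factors (trimmed mean of M values), and fitted in one quasi-likelihood model of 4 group means with 4 residual degrees of freedom. Tests were two-sided and adjusted by Benjamini-Hochberg over all tested genes. Per-library CPM used TMM-scaled library sizes, and RPKM the deposited gene lengths. SEs were derived from the fold change and the F statistic. Limits for counts of 0 cover counting error only, since reads without molecular identifiers are not independent molecules.

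The 54 genes, the role groups and the list of other mitotic genes were chosen with earlier results of these data known. Given with full statistics were, per comparison of groups, the 3 largest called changes in each direction and the gene with the lowest adjusted p of each role, and for the interaction the 3 lowest unadjusted p-values; of the other mitotic genes, the 2 largest called changes per direction. Further called genes and partners in a complex were named after their values were seen. Deviations from the group means of libraries with the same replicate number correlated at 0.234 to 0.718 over the 6 pairs of groups (10405 genes). The numbers were therefore taken to pair the libraries in the replicate block, which the main fit left out. The pairing rests on the titles' numbers and this correlation. For each gene the block assumes the same shift in every group. Replicate 1 was higher for 25 of the 54 genes in BRCA1+ control but for 49 in BRCA1-null control. The alternatives tried were 2 other scalings (size factors of DESeq2 1.42.0 and upper quartiles), 2 other filters, 2 other tests (Wald in DESeq2, likelihood ratio in edgeR), the replicate block, fits on the compared groups, and each library left out.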

Additional observations from a re-analysis of the deposited data

How the results depend on the processing

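Called counts and medians of the 54 genes were recomputed in 153 combinations of result and alternative, of which 125 stayed within 1.5 times the count or within the replicate SD of 0.0346 for a median. The single-gene values gave 902 further combinations; 805 kept their direction and side of the threshold, 90 lost and 7 gained a call, and 0 changed sign. With upper-quartile factors the median was -0.028 between the lines in DMSO, -0.059 with entinostat in BRCA1+ cells (7 genes called) and 0.0005 for the interaction. With at least 1 CPM in at least 4 libraries it was -0.031 in DMSO and 0.0032 for the interaction. The replicate block raised the calls with entinostat from 11 to 21 in BRCA1+ and from 3 to 8 in BRCA1-null cells, and from 19 to 28 (DMSO) and 22 (entinostat) between the lines; it removed none of the calls made without it. Leaving out each library in turn gave 11 to 19 calls between the lines in DMSO (median -0.11 to -0.022), 10 to 19 in entinostat, 0 to 11 with entinostat in BRCA1+ cells, and 0 to 2 in BRCA1-null cells (median -0.11 to -0.021), while the median interaction was -0.0065 to 0.083. With 1 library left in a group, that library is assumed to vary like the others. The cause was not tested. All 54 genes lie above the median level of the tested genes, and 2 libraries per group limit what can be said of changes within 1.5-fold.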
